A study of Mus musculus with 3 samples.

Results

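Isolated single clusters are sites where reads of a Ptbp2 HITS-CLIP experiment piled up with no second cluster nearby on the same strand. A cluster was a run of overlapping same-strand reads with at least 10 reads at its summit, the position covered by most reads, and with reads of all 3 colour classes of the deposited file. It counted as isolated when no other same-strand cluster lay within 10 kb of either edge. On chromosomes 1 to 19 this left 2915 isolated clusters of 6452, or 45.2% (95% Wilson interval 44.0 to 46.4), and 6509 clusters were called on the whole nuclear genome. The clusters were thus chosen by their summit height, the classes present and their spacing, so these values are given as a description, without a test.

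Ptbp2, a relative of the polypyrimidine tract-binding protein Ptbp1, binds stretches of RNA rich in pyrimidines and controls which exons are kept in the mature transcript. It is best known from neurons, and in the testis it is found in germ cells. HITS-CLIP crosslinks protein to RNA with ultraviolet light, recovers one protein with its trimmed RNA fragments and sequences the fragments. The 2 ends of a fragment come from ribonuclease trimming and from the copying and sequencing that follow, so both where the reads overlap and how their ends line up describe a site.

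The data come from whole testes of male CD1 mice, 8 weeks old, with 3 libraries from 3 animals and no treatment, comparison group, input or control library. Reads of background RNA can therefore not be told apart from reads of bound RNA. The file holds 1727697 reads in 3 display colours, with 493620 red, 952096 green and 281981 blue reads, and the labels do not say which colour is which library. Colours are treated as 3 unnamed classes whose values are given singly, without an SD. Intervals cover counting error only, and treat reads and clusters as independent. Positions are mm9 positions counted from 1. Genes, exons, sequences and marker genes of testis cell types were not analysed here, because no annotation or genome of that build was used, so sites are named by position and strand.

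Isolated clusters were mostly low, narrow piles. The summit ran from 10 to 250 reads with a median of 13 and quartiles of 11 and 17. A summit of 20 or more was reached by 482 clusters (16.5%), of 50 or more by 42 and of 100 or more by 6. Exactly 10 reads, the lowest height the rule admits, were found at 575 clusters. Just below it lay 800 runs of 9 reads at the summit with all 3 classes and no cluster within 10 kb. The clusters held 57392 reads, which was 3.32% of all reads and 39.9% of the reads in clusters of chromosomes 1 to 19. The number rested on the deepest class: 925 isolated clusters were called without the green class, 2088 without the red class and 2826 without the blue class.

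Total width had a median of 105 nt (quartiles 82 and 146 nt, range 50 to 864 nt), and 82 clusters were 300 nt or wider. The widest, at chr7:89919719-89920582 on the plus strand, joined 438 reads under a summit of 80, and was chosen for mention after its values were seen. The core, meaning the bases covered by at least 50% of the summit height, was far more uniform, with a median of 52 nt and quartiles of 47 and 60 nt. Height and core width were unrelated across the clusters (Spearman's rho 0.00 over 2915 clusters, which share the 3 libraries), so taller piles were not wider at the core. The clusters' own median read lengths had a median of 48.5 nt, so a core was about the length of a read. In 1281 clusters (43.9%) every read overlapped the summit, so that the cluster was a single stack. The summit sat in the middle, at a median of 0.50 of the way from the 5' to the 3' edge (quartiles 0.40 and 0.60).

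The 3 classes made parts of the cluster reads near their share of the whole file. Every cluster had to hold at least 1 read of each class, so these shares are in part set by the rule. Green made 55.4% of the reads in isolated clusters against 55.1% of all reads, red 26.6% against 28.6% and blue 17.9% against 16.3%. Single clusters varied widely around this. The green share ran from 5% to 92.3% with quartiles of 42.9% and 66.7%. The blue class was present with 1 read in 696 clusters, the red class in 283 and the green class in 28, so for these the presence of all 3 classes rests on 1 read.

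The tallest isolated cluster lay at chr7:118219516-118219762 (minus strand). It had 250 reads at its summit and 343 in all, of which 78 were red, 206 green and 59 blue. Its reads began at 98 different positions and ended at 101, and no single 5' end held more than 12 reads. It was a tall pile of reads with many different ends, and its core was 54 nt wide. The next, at chr10:75313194-75313383 (plus strand), had 171 reads at its summit and was unlike it in its ends. There 24 of 178 reads shared their 3' end, and 149 of the reads were green, 15 red and 14 blue.

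The third tallest, at chr3:145948788-145948899 (plus strand), had a summit of 142 reads, with 136 of its 150 reads in the green class and 8 and 6 in the red and blue classes. The largest stack there held 21 reads with the same 3' end, which were green without exception. The fourth, at chr9:78023101-78023251 (minus strand), had a summit of 124 reads, with 41 red, 98 green and 23 blue reads. No other same-strand read lay within 10 kb of it, while 14 reads lay there on the opposite strand. At chr11:33994115-33994413 (minus strand), a summit of 110 reads held 104 green reads of 136. Over the 10 tallest sites the green class made from 39.4% to 90.7% of the reads, against 55.1% of the whole file.

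The sixth and the eighth tallest lay close together on chromosome 6 but on opposite strands. The plus-strand cluster, at chr6:47731621-47731765, had a summit of 108 reads, and the minus-strand cluster, at chr6:47738041-47738178, one of 89. Only 6275 nt separated them. Each counted as isolated because neighbours were sought on the same strand. The minus-strand site was the most even in class of the 10 tallest, with 27 red, 37 green and 30 blue reads. The remaining 3 of the 10 tallest were at chr11:23617984-23618078 (plus strand), at chr11:68881435-68881652 (minus strand) and at chr15:78495670-78496133 (minus strand). Their summits were 96, 87 and 86 reads. Core widths of the 10 tallest stayed between 44 and 62 nt although their total widths ran from 95 to 464 nt.

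**Figure D1:**
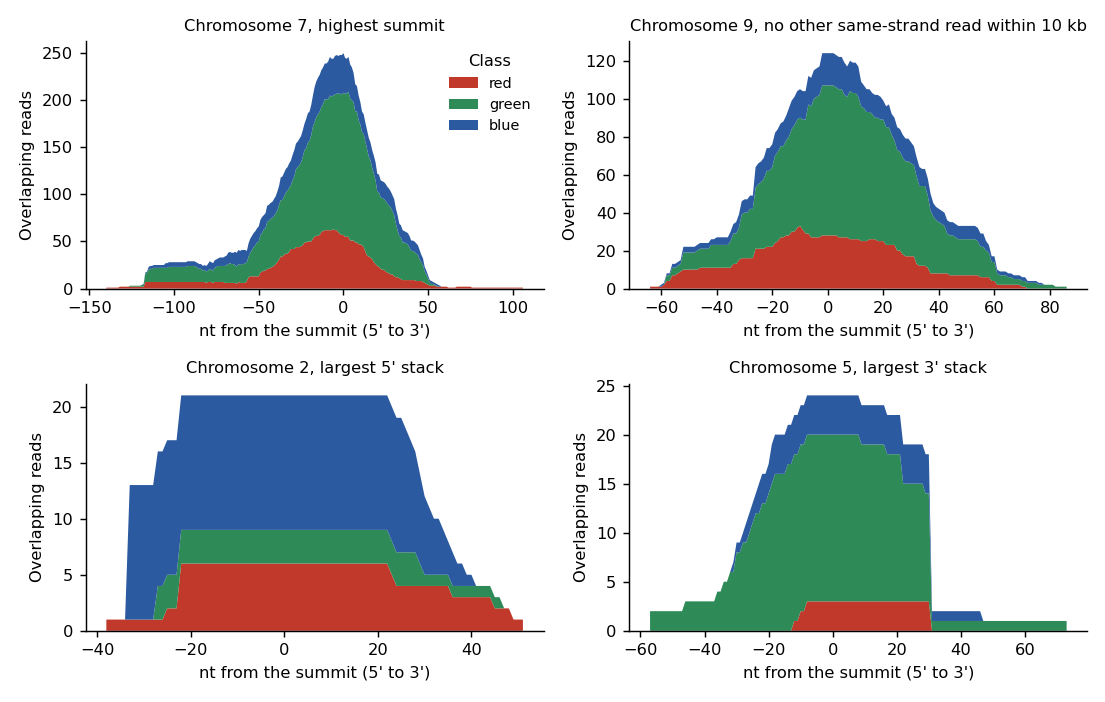
Reads overlapping each base (vertical axis) by distance from the summit in nt, 5' to 3' (horizontal axis), stacked by colour class, for 4 isolated clusters: the tallest, the tallest with no other same-strand read within 10 kb, and those with the largest 5' and 3' stacks. The 2 tall clusters rise and fall gradually to 250 and 124 reads, while the other 2 have a vertical edge where reads of a stack begin or end.

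Few isolated clusters stood in empty surroundings. The share of same-strand reads within 10 kb that lay in the cluster itself had a median of 22.7% (quartiles 14.8% and 36.4%, range 3.86% to 100%). Summed over the 2915 clusters, 57392 of 251508 such reads were in the clusters, or 22.8% (95% Wilson interval 22.7 to 23.0). The classes taken singly had medians of 20.7% in the red, 22.1% in the green and 25% in the blue class. Each class had to be present in the cluster, so these medians are in part set by the rule. A share of 90% or more was found at 128 clusters, and 77 of these had no other same-strand read within the window. At the other end, 240 clusters held under 10% of the reads around them. Between the groups the medians differed little in core width, at 48.5 nt in the 128 and 50 nt in the 240, and more in height, at 16 and 11 reads at the summit. The count of cluster reads enters both height and share.

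**Figure D2:**
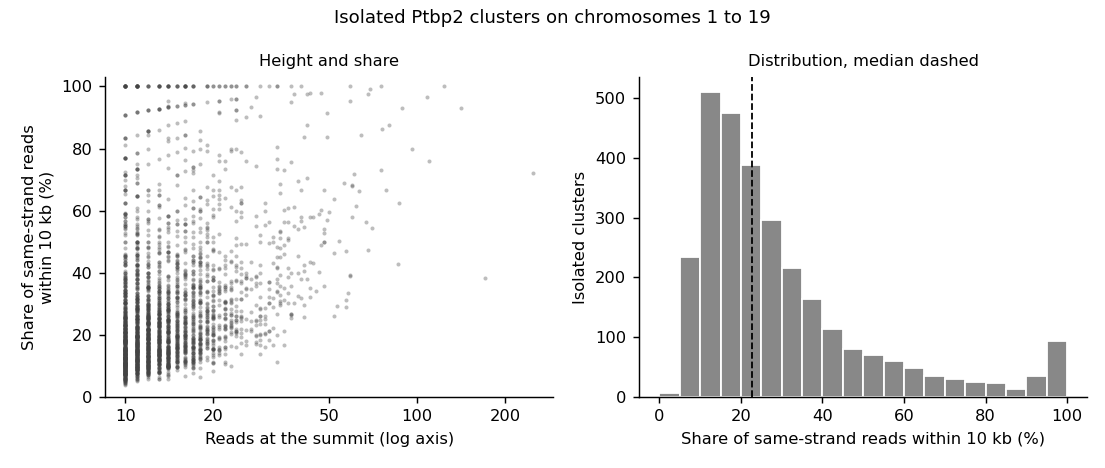
Left, each isolated cluster by reads at its summit (log axis) and by its share of the same-strand reads within 10 kb in percent. Right, the number of isolated clusters by that share, with the median of 22.7% dashed. Most clusters lie below 50%, and 128 lie at 90% or more.

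The 5 tallest clusters without another same-strand read within 10 kb are named here. The first is the chromosome 9 cluster above. At chr3:114994550-114994659 (plus strand), 75 reads overlapped at the summit, with 23 red, 42 green and 10 blue reads. The nearest same-strand cluster was 1.31 Mb away, and the opposite strand had 0 reads within 10 kb. At chr4:22618654-22618771 (minus strand), there were 59 reads, of which 15 were red, 40 green and 4 blue, and the next cluster was 3.64 Mb away. The fourth, at chr14:42899229-42899316 (plus strand), had 40 reads, split into 15 red, 15 green and 10 blue. The last, at chr11:102429310-102429417 (plus strand), had 37 reads at the summit among 16 red, 20 green and 7 blue reads. All 5 had at least 4 reads of each class. The rule required each class, and these sites were picked for having no other same-strand read within 10 kb. The opposite strand had 14 reads within 10 kb of the chromosome 9 cluster and 1 near the last. It had 0 near those on chromosomes 3, 4 and 14.

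Of the clusters with 20 or more reads at the summit, the 5 with the smallest share stood among many other reads. At chr4:91861294-91861395 (plus strand), the cluster held 20 reads and the flanks 131 upstream and 94 downstream, a share of 8.16%. At chr11:84658042-84658119 (minus strand), 23 reads stood beside 164 upstream and 47 downstream, a share of 9.83%. The other three, at chr16:73118208-73118292 (plus strand), chr1:183580932-183581009 (plus strand) and chr12:7834273-7834391 (minus strand), had shares of 10.7%, 10.8% and 11%. Over the 5, the tallest other run in the window had 8 to 11 reads at its summit, around the 10 that a cluster needs, and those of 10 or 11 lacked a class.

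Isolation by the rule thus often meant that neighbours fell short of the threshold. The tallest other run within 10 kb had a median summit of 6 reads, and 2022 clusters (69.4%) had a run of 5 or more reads beside them. These counts take runs that lie wholly within the 10 kb. In 258 clusters (8.85%) such a run reached 10 reads but lacked a class, so it was no cluster. The tallest of these had 53 reads at its summit and stood beside a 17-read cluster at chr17:15900193-15900265 (plus strand). At the opposite extreme, 169 clusters (5.80%) had no 2 overlapping same-strand reads anywhere else in the window. When runs of 5 or more reads counted as neighbours, also those only partly within 10 kb, 885 clusters were isolated.

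Distances to the nearest same-strand cluster ran from 10001 nt to 11.9 Mb with a median of 120882 nt, and the quartiles were 26676 and 543638 nt. The closest to the limit was a pair at chr12:71073113-71073215 (minus strand) and chr12:71083217-71083340, 10001 nt apart. Next inside came a cluster of 10 reads at chr1:36488496-36488583 (minus strand), at 10078 nt. Just outside lay a pair at chr4:91914684-91914830 (plus strand) and chr4:91924826-91924970, 9995 nt apart with summits of 12 and 50 reads, and a cluster at chr6:34062277-34062339 (plus strand) at 9993 nt. There were 85 clusters whose neighbour was over 10 and up to 11 kb away and 96 with one over 9 and up to 10 kb away, so no gap in spacing marks the limit.

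The most remote cluster, at chr18:89260349-89260507 (plus strand), was 11.9 Mb from the next and had 12 reads at its summit. It was followed by clusters at 9.44 Mb at chr15:21929847-21930043 (minus strand), at 8.58 Mb at chr12:32186143-32186357 (plus strand), at 8.06 Mb at chr12:40762555-40762845 (minus strand) and at 6.97 Mb at chr10:50405224-50405313 (plus strand). Their summits were 15, 21, 11 and 11 reads. Remote clusters were not taller than others: Spearman's rho between distance and summit was -0.01 over the 2915 clusters. Distance and share of the reads within 10 kb went together more (rho 0.37).

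Reads thinned out with distance from isolated clusters, and did so alike on both sides. Within 50 nt of the edge there were 16.5 reads per kb per cluster upstream and 17.1 downstream, where upstream means toward the 5' end of the strand. Between 500 and 1000 nt the densities were 5.11 and 5.49, and between 5000 and 10000 nt they were 2.56 and 2.63. Inside the clusters the density was 157 reads per kb. In the red class the upstream density fell from 4.49 to 0.739 reads per kb between the nearest and the farthest bin, in the green class from 9.37 to 1.41 and in the blue class from 2.60 to 0.409. Reads were thus denser within 1 kb of the clusters than farther out in each class.

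**Figure D3:**
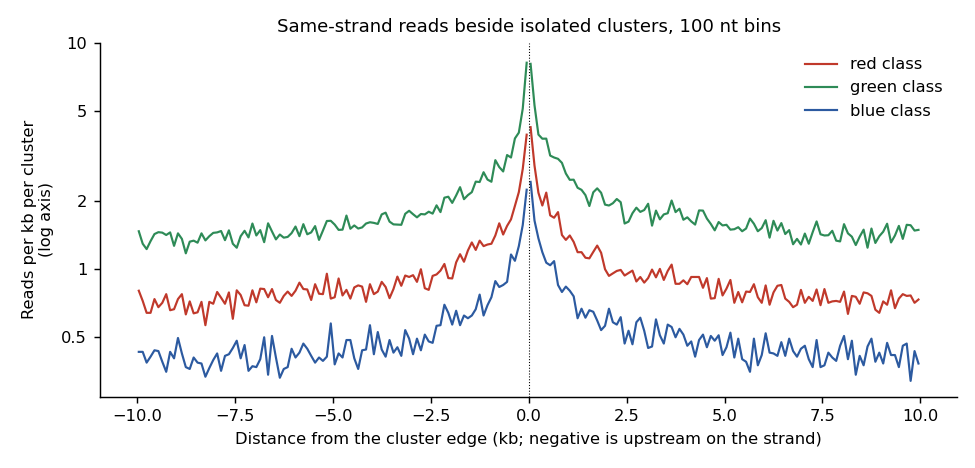
Same-strand reads per kb per isolated cluster (log axis) against distance from the cluster edge in kb, in bins of 100 nt, one line per colour class, with upstream to the left. The 3 lines fall on both sides in the same way, and the green class, which has most reads, lies highest.

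Of the reads in the 10 kb flanks, 49.1% lay upstream (95% Wilson interval 48.9 to 49.4). The interval treats reads as independent, although they come in blocks from the same windows and libraries. The share was 50.6% at a lowest summit of 20 reads and 48.7% in flanks of 1 kb, so no lean to either side is read from it. Single sites could be lopsided. Among the 2481 clusters with 20 or more flank reads, 65 had at least 90% of them upstream and 81 at least 90% downstream. The opposite strand was nearly silent, with a median of 1 read within 10 kb and 1440 clusters (49.4%) with 0 such reads. In 76 clusters the opposite strand held more reads than the cluster's own strand, and in 55 a cluster of the other strand lay within 10 kb.

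Read ends stacked at shared positions. A cluster's commonest 5' end took a median of 23.1% of its reads (quartiles 16.7% and 30.8%) and the commonest 3' end 20.8% (quartiles 15.4% and 29.4%). In counts this was a median of 4 reads for the 5' end and 3 for the 3' end, and the typical cluster had 10 different 5' ends and 10 different 3' ends. From the commonest 5' to the commonest 3' end was a median of 50 nt, close to the core width. Both shares have a floor set by the number of reads, since 10 reads cannot share an end in steps smaller than 10%. The file holds no 2 reads with the same start, end and strand, so reads that share a 5' end must differ at the 3' end, and the reverse. The order of the ends turned with the setting, with medians of 25% at the 5' and 27.3% at the 3' end when ends within 1 base were joined, 15.8% and 17.2% at a lowest summit of 20 reads, and 14.3% and 25% after thinning to 1 read per 5' end.

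The balance of the ends turned with height. At a summit of exactly 10 reads the medians were 30% for the 5' end and 20% for the 3' end, and 296 of 575 clusters had the larger share at the 5' end against 158 at the 3' end. At a summit of 30 or more they were 12.9% and 15.6%, and 59 of 173 clusters had the larger share at the 5' end against 95 at the 3' end. Of the 10 tallest clusters, 9 had the larger share at the 3' end. Keeping 1 read per 5' end and class left 1454 of the 2915 (49.9%) overlapping a cluster, and those lost had a median summit of 11 reads and a median 5' share of 29.4%, against 17 reads and 18.6% in those kept. A further step to 1 read per 3' end left 712 (24.4%). Thinning against a fixed threshold of 10 reads removes low clusters and those stacked at 1 end by construction. The tallest cluster lost had 33 reads at its summit in the first step and 60 after both. With clusters and spacing called anew from the thinned reads, 1848 were isolated.

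**Figure D4:**
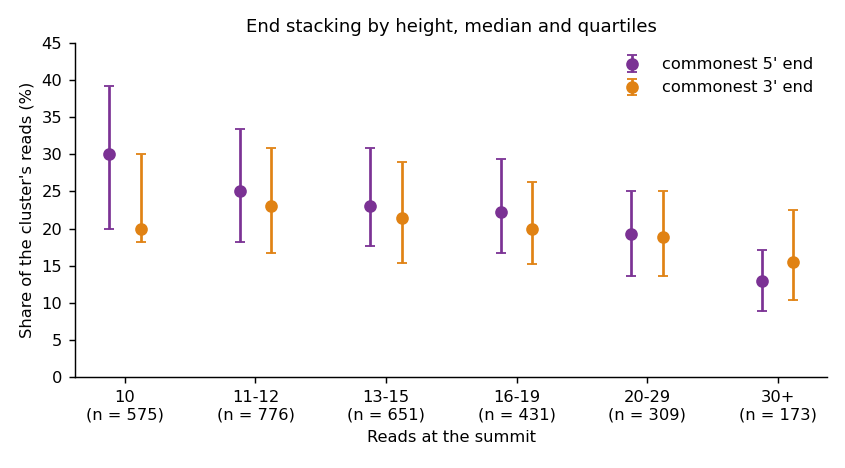
Share of a cluster's reads at its commonest 5' end and at its commonest 3' end in percent (points are medians over clusters, bars the quartiles) by reads at the summit, with the number of isolated clusters under each group. The 5' share falls from 30% to 12.9% with height and ends below the 3' share.

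Stacks are ranked here by their share of the cluster's reads, not by their count of reads, among clusters of 20 or more reads. Of the 5 largest by share at the 5' end, 3 held 1 class alone. The largest 5' share among clusters of 20 or more reads was at chr2:17595405-17595494 (minus strand), where 12 of 21 reads began at the same base. These 12 were blue and 59 to 74 nt long, while the cluster also held 6 red and 3 green reads. A second cluster of this kind at chr2:135041234-135041348 (minus strand) had 12 of 23 reads at 1 base, again blue. At chr5:35045891-35045975 (plus strand), 16 of 33 reads shared a 5' end and were blue as well. Mixed stacks occurred at chr10:42968125-42968207 (plus strand), with 7 red and 4 blue reads at 1 base, and at chr4:115693860-115693937 (plus strand), with 3 red, 1 green and 6 blue. Beside their blue reads, the second chromosome 2 cluster held 8 red and 3 green reads and the chromosome 5 cluster 8 red and 9 green.

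Among clusters of 20 or more reads, the 5 largest 3' stacks by share had shares of 57.1% to 68%. The medians over clusters of that size were 16% at the 3' end and 16.5% at the 5' end. At chr5:123365827-123365957 (minus strand), 17 of 25 reads ended at the same base, with 3 red, 11 green and 3 blue reads among them and lengths of 39 to 65 nt. That 3' end was shared by every class. At chr16:8467950-8468018 (minus strand), 12 of 21 reads shared the 3' end, again from each class, with 1 red, 6 green and 5 blue. At chr3:151916595-151916688 (plus strand), 14 of 23 reads did so, with 6 red, 7 green and 1 blue. The stacks at chr13:117680480-117680580 (minus strand), with 21 of 31 reads, and at chr5:111384561-111384675 (plus strand), with 15 of 26, were green throughout.

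Across the clusters, a commonest 5' end of 5 or more reads occurred in 1012 and held 1 class in 148 of them, 2 classes in 482 and all 3 in 382. For the 3' end the numbers were 827, with 128, 383 and 316. The reads in these 5' stacks were 27.5% red, 52.9% green and 19.6% blue, close to the classes' part of all cluster reads. In the 3' stacks they were 20.5% red, 64.8% green and 14.7% blue, so green reads were more frequent there. Of the 128 3' stacks of 1 class, 116 were green, 5 red and 7 blue. The 148 5' stacks of 1 class were 93 green, 25 red and 30 blue. The file lists identical reads once whichever class they came from, so an end shared by several classes can show fewer of them. Whether copies of single molecules, trimming or the class with most reads has a part in these stacks was not tested.

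Reads that had no part in the call gave a separate view of the sites. Clusters were called from 2 classes, at a summit of 10 or more with both classes present, and the third class was then counted in those that were isolated. With red left out, 1859 of 2088 clusters held at least 1 red read, or 89.0% (95% Wilson interval 87.6 to 90.3). With green left out it was 902 of 925, or 97.5% (96.3 to 98.3), and with blue left out 2049 of 2826, or 72.5% (70.8 to 74.1), in the order of class depth. The reads inside the clusters were 32.4-fold the number in equal lengths of the 10 kb flanks for red, 37.2-fold for green and 34.6-fold for blue. The flanks are free of clusters of the calling classes by the rule, so the ratios are in part set by the rule. Of the left-out reads inside clusters, 76.3% to 76.6% covered the summit of the other classes, against 82.8% to 84.3% of the calling reads themselves. The calling reads set that summit, so their value is high by construction. Left-out reads were counted when their middle lay in the cluster, so reads can cover the summit by placement alone. No value for reads placed at random was computed.

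Some reads of the left-out class shared the commonest ends of the calling classes. Reads inside a cluster can meet such an end by placement alone, and no value for reads placed at random was computed. Of the left-out reads, 9.55% of red, 6.55% of green and 8.87% of blue began at the commonest 5' end of the calling classes, where 21.9%, 23.8% and 22.2% of the calling reads began. At the commonest 3' end it was 9.38%, 8.34% and 9.97%, against 22.6%, 18.9% and 22.9%. The calling reads chose those ends, so their own shares are high by construction, and a left-out read identical to a calling read is not listed. After thinning to 1 read per 5' end within a class, left-out reads fell on the commonest 5' end in 5.01%, 3.46% and 5.61% of cases and on the commonest 3' end in 10.3%, 8.82% and 10.2%. After that step the left-out classes met the 3' end of the other classes more often than the 5' end. In the reads as deposited this held for green and blue, while red had the slightly larger value at the 5' end. The thinning itself acts on 5' ends and so lowers the 5' values by construction, so no preference for the 3' end is read from it.

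**Figure D5:**
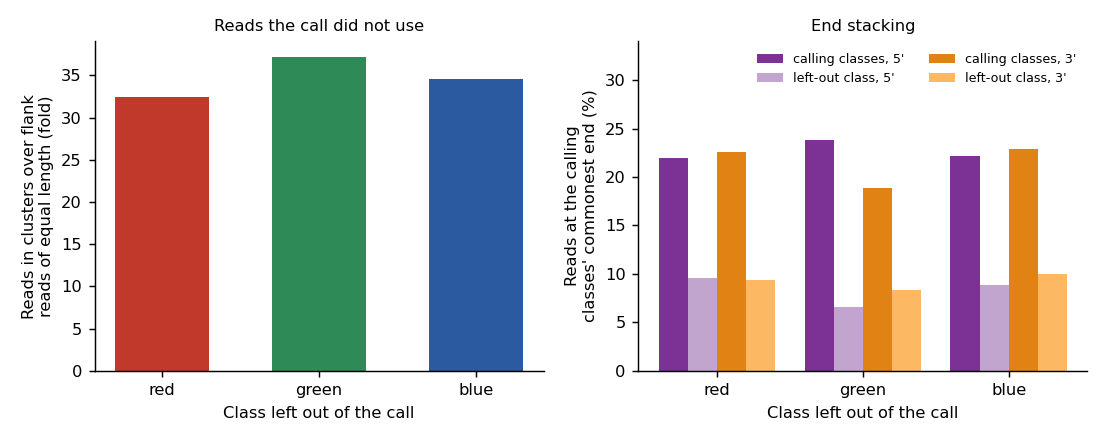
Left, reads of the class left out of the call inside isolated clusters over reads in equal lengths of the flanks (fold), by class. Right, percent of reads at the calling classes' commonest 5' and 3' ends, for the calling reads and for the left-out reads. The folds lie between 32.4 and 37.2, and left-out reads reach 6.55% to 9.97% at those ends.

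Isolated and grouped clusters had like median heights, and grouped ones were wider in total. Clusters joined at up to 10 kb made 3024 clusters in groups of 2 to 9 and 513 in groups of 10 or more on the same chromosomes. Median summits were 13, 13 and 14 reads for isolated clusters, small groups and large groups. Each kind was cut at the same lowest summit of 10 reads, so the likeness of these medians is in part set by the rule. Median total width was 105, 129 and 144 nt, while the core had 52, 54 and 55 nt. At a summit of exactly 10 reads the total widths were 96, 115 and 126 nt, in the same order. Single stacks, in which every read overlaps the summit, made 43.9% of isolated clusters (42.2 to 45.8) and 26.2% of grouped ones (24.7 to 27.6). The windows held a median of 79, 198 and 457 same-strand reads, and the part of this density in the widths was not tested. Clusters are not replicates, so these differences carry no test.

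End shares were higher in isolated clusters at the 2 heights compared here, with wide overlap. Clusters of other heights are not compared here, so the order is stated for these 2 heights only. At a summit of 13 to 15 reads, the median 5' share was 23.1% in isolated clusters, 21.4% in small groups and 20.8% in large groups, and the 3' end 21.4%, 18.8% and 17.6%. At 30 or more the 5' shares were 12.9%, 10.1% and 11.9% and the 3' shares 15.6%, 11.6% and 11%. The quartiles of the kinds overlapped in each of these comparisons. Shares are taken over all reads of a cluster, so reads beside the summit lower them. Every read overlapped the summit in 43.9% of isolated and 26.2% of grouped clusters, and the part of this in the end shares was not tested.

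The isolated share of clusters varied over the chromosomes. It was highest on chromosome 9, where 172 of 286 clusters or 60.1% were isolated (54.4 to 65.6), and lowest on chromosome 17, with 136 of 403 or 33.7% (29.3 to 38.5). Chromosome 17 was not poor in isolated clusters. With 1.47 per Mb it followed chromosome 19 at 1.58, and it had 2.90 grouped clusters per Mb, against 0.942 on chromosome 9. Chromosome 14 had the lowest density of isolated clusters, at 0.893 per Mb. Density ran from 0.893 to 1.58 per Mb for isolated clusters and from 0.942 to 2.90 per Mb for grouped ones. Chromosome 17 alone set the upper grouped value, and the next highest was 1.94 per Mb on chromosome 11. Every member of a group is counted, so a dense group can raise the value of its chromosome. On the plus strand lay 1546 isolated clusters, or 53% (51.2 to 54.8).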

How the data were processed

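Ptbp2 HITS-CLIP libraries from the testes of 3 mice were used as deposited. Per the labels' protocols, 79 bases were sequenced, beginning with linker bases. Mapping used Bowtie and mm9, per the submitters' processing notes. Its version and settings, and how multiply mapping or duplicate reads were treated, were not given in the sources used here. Each line was 1 read as the authors deposited it, with a score of 0 throughout that was not used. Reads were 20 to 74 nt long, and 0 lines repeated the position and strand of another.

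Runs, clusters and summits were computed with Python 3.11.15, numpy 2.4.6, pandas 2.3.3 and scipy 1.17.1. Reads wholly within 10 kb of a cluster's edges made its window. Intervals are 95% Wilson intervals. Calling was tested on simulated data with 200 planted sites. Its background was the 49080 reads of chromosome 19 re-placed at random positions, so it lacked the uneven surroundings of the real clusters. It found 89% of sites of 12 reads, 96% of 20 and 100% of 40. Every lone site found was called isolated, which the simulated background, with 0 clusters of its own, could hardly prevent. Of the pairs with both sites found (40 at 12 reads, 45 at 20 and 50 at 40), 0 sites were called isolated. The rule fixed this in advance, since both sites of a pair were planted on the same strand within 10 kb.

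The clusters, lists and tests were chosen with earlier results of these data known. The rule for named clusters took the 10 tallest, those next to the 10 kb limit and the 5 most remote. At a summit of 20 or more it took the 5 with the largest and the 5 with the smallest share of reads within 10 kb. Among clusters of 20 or more reads it took the 5 largest stacks at each end, by share of the cluster's reads. The chromosome 17 cluster with a 53-read neighbour was chosen after its values were seen. Planned sequence and annotation results were not run.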

Additional observations from a re-analysis of the deposited data

Results flagged for a closer look

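Isolated clusters also occurred outside chromosomes 1 to 19. The X chromosome had 24 of its 46 clusters isolated, and a signal there lies outside the comparisons above. Their median summit was 13.5 reads and the highest 71, and they held a median of 93.8% of the same-strand reads within 10 kb, where the median on chromosomes 1 to 19 was 22.7%. The difference was not tested. The Y chromosome and unplaced sequences together had 9 isolated clusters of 11, with a median summit of 13 reads and a median share of 38.2%. Within 10 kb of 258 isolated clusters stood a run of 10 or more reads that lacked a class and was left out of the calls.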

How the results depend on the processing

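In place of 2915 isolated clusters, a lowest summit of 5 reads gave 5920 and one of 20 gave 857. An isolation distance of 50 kb gave 1836 and runs of 5 reads as neighbours 885. Thinning to 1 read per 5' end within a class gave 1848, and a further step to 1 per 3' end 1125. Leaving out 1 class gave 925 to 2826. The count stayed within 1.5 times under 2 of the 3 classes, distances of 5 and 20 kb, both strands and class-lacking runs as neighbours. At the lowest summit of 20 the medians were 25 reads, 131 nt, 15.8% at the 5' end, 17.2% at the 3' end and 26.1% of the reads within 10 kb, with 50.6% of flank reads upstream. With 1 read per 5' end they were 12 reads, 14.3%, 25% and 21.3%, with 49.5% upstream, and after the further 3' step 11 reads, 122 nt, 15.4%, 15.4% and 18.4%, with 49.9% upstream. Leaving out 1 class gave a median summit of 12 reads each time, widths of 96 to 104 nt, 5' shares of 23.1% to 23.5%, 3' shares of 20% to 23.1%, window shares of 23.9% to 26.3% and upstream shares of 49.3% to 49.998%. Counting the core alone gave 52 nt. Ends within 1 base gave 25% at the 5' and 27.3% at the 3' end, and clusters of 20 or more reads 16.5% and 16%. Windows of 5 and 20 kb gave shares of 32.6% and 14.5%, reads of both strands 20.9%, and flanks of 1 kb 48.7% upstream. With 1 read per 5' end, 92.9% of clusters held a left-out red read, 99.5% a green and 81.4% a blue one. These settings admit other reads or clusters by construction; beyond that the cause was not tested. No paired analysis was possible because only 1 group was sampled. Depth limits the blue class most. Alternatives for sequence and annotation were not run.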
